A study of Mus musculus with 7 samples.

Results

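The genes described here encode the enzymes that make cholesterol, the proteins that sense sterol levels and switch those enzymes on, and the proteins that move cholesterol inside the cell and out of it. They were chosen by symbol, as the 26 named genes of this system looked up in GENCODE M21 among the 55401 genes of the deposited count table, and all 26 were found. They comprise 18 synthesis enzymes, 1 sterol carrier (Stard4) and 2 exporters (Abca1 and Abcg1). The other 5 encode the sterol-responsive transcription factors and the proteins that escort or retain them. No lipoprotein receptor is among the 26 genes, and uptake genes are given from a separate list. RNA was sequenced from CD11b-enriched microglia of the dorsal hippocampus of C57BL/6 mice, male by the series title, aged 6 to 8 weeks. The dorsal dentate gyrus of all mice received AAV-RAM-Cre, a virus whose synthetic promoter responds to neuronal activity and expresses the recombinase Cre in neurons active during an experience (engram neurons). The 4 control libraries (EYFP 1 to 4) came from mice given AAV-Dio-EYFP with it, a Cre-dependent fluorescent protein, and the 3 ATG7 libraries (ATG7 1 to 3) from mice given AAV-Dio-Atg7-Flag, which expresses Flag-tagged Atg7, a protein required for autophagy, in the same neurons. The microglia themselves were not the cells the transgene was directed at. The labels do not say whether a library is 1 mouse or several, so p-values measure only the spread between these libraries, which may be partly technical.

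Cells make cholesterol from acetyl-CoA through mevalonate and farnesyl diphosphate to squalene, and from squalene through lanosterol to cholesterol. The sterol regulatory element-binding proteins (SREBP, encoded by Srebf1 and Srebf2) are held in the endoplasmic reticulum by Insig proteins and escorted by Scap to the Golgi when sterols are scarce, after which they enter the nucleus and switch on nearly every enzyme of the pathway. When sterols are plentiful, oxysterol-activated liver X receptors (LXR) raise the exporters Abca1 and Abcg1, which load cholesterol onto lipoproteins. In the brain, cholesterol is made locally, largely by astrocytes and oligodendrocytes, and microglia clear lipid-rich debris such as myelin.

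Total counts ranged from 35934210 to 55217119 per library and levels are given as CPM, counts relative to library size, scaled by trimmed means of M values (TMM). The 10 microglia markers summed to 22594 to 27641 CPM in EYFP and 22345 to 27506 CPM in ATG7. The targeted gene Atg7 was at 35.6 ± 1.68 CPM (SD, n = 4) for EYFP against 34.9 ± 2.76 CPM (SD, n = 3) for ATG7 (log2 fold change -0.03, SE 0.0787, edgeR adjusted p = 0.939). The transgene was directed at neurons, so this level does not check the labels of the microglia libraries. Markers of other cells were present, led by the choroid plexus transcript Ttr at 29096 to 44601 CPM. The library labelled EYFP 3 had 939 CPM of the X-inactivation transcript Xist against 0.151 to 0.574 CPM in the other 6. Xist marks female cells, while the series title says male, and the reason for this difference was not tested. The counts of members are therefore also given without EYFP 3. Among the members, Ebp and Nsdhl lie on chromosome X.

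No single one of the 26 genes passed the test between ATG7 and EYFP (quasi-likelihood test of edgeR, threshold 0.05 on p adjusted by Benjamini and Hochberg over 19199 genes), where 0.755% of all genes tested did, 0.688% higher and 0.0677% lower. All 26 passed the filter on low counts and were tested. At an unadjusted p under 0.05 there were 13 of 26, of which 11 were lower in ATG7 (background, as the share of all genes tested, 5.71%) and 2 higher (background 6.27%). The fitted log2 fold change of 21 members was below 0, against 50.8% of all genes. The median log2 fold change of the members was -0.20, beside -0.0037 over all genes tested. In 11 members every ATG7 library lay below every EYFP library, against 4.91% of all genes, and in 2 every ATG7 library lay above (background 6.33%). Without EYFP 3 these counts were 13, against 7.70% of all genes in that fit, and 2, against 8.34%, with 21 members below 0 and none past the adjusted threshold. By the DESeq2 Wald test 2 members passed, Msmo1 (adjusted p = 0.0384) and Abca1 (adjusted p = 0.0200), where 1.73% of all genes passed, and by limma-voom none did, where 1.13% did. Averaged over the members, log2 CPM came to 5.03 ± 0.102 (SD, n = 4) for EYFP against 4.87 ± 0.0764 (SD, n = 3) for ATG7, with overlapping groups. Within the EYFP group the enzymes tended to be high or low together by library, so the counts of members above are not counts of independent genes.

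**Figure D1:**
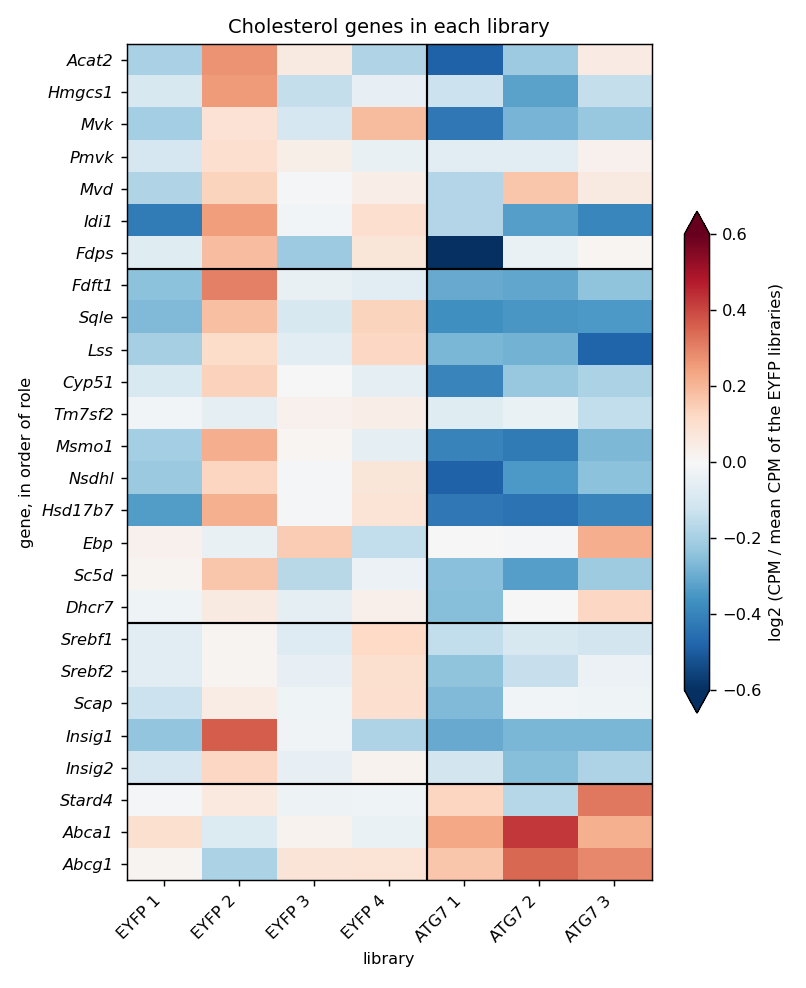
Each cell is the log2 ratio of a gene's CPM in 1 library to its mean in the 4 EYFP libraries (colour scale clipped at ±0.6), with genes in rows by role and libraries in columns. In the ATG7 columns the 11 genes lower in every ATG7 library are blue and Abca1 and Abcg1 are red, and EYFP 2 holds the highest value of 14 genes.

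Of the 11 enzymes from squalene synthase onward, 10 had a log2 fold change below 0, 7 had groups that did not overlap and none passed the adjusted test, with a median of -0.29. Msmo1, the sterol methyl oxidase that acts on the C4 methyl groups, had the smallest p of all members (ENSMUSG00000031604, chromosome 8, 64718139 to 64733792, GRCm38). It was at 50.3, 67.4, 58.4 and 55.7 CPM across EYFP 1 to 4, against 43.9, 43.2 and 48.1 CPM across ATG7 1 to 3. Every ATG7 library was below the lowest EYFP library, and the fitted level was 22.2% lower (log2 fold change -0.36, SE 0.0962, edgeR adjusted p = 0.144). Without EYFP 1, the lowest EYFP library for this gene, its adjusted p was 0.0435, and without EYFP 2, the highest, 0.190 (edgeR). Over 16 alternatives it ranged from 0.0384 to 0.547. Nsdhl, the dehydrogenase of the same demethylation complex (ENSMUSG00000031349, chromosome X, 72918557 to 72958514), was at 24.4, 31.1, 28.3 and 29.9 CPM across EYFP 1 to 4, against 20.3, 22.4 and 24.0 CPM across ATG7 1 to 3. The groups did not overlap, although ATG7 3 lay close to EYFP 1 (log2 fold change -0.36, SE 0.100, edgeR adjusted p = 0.167). Hsd17b7, the reductase of that complex, was the member with the largest fitted difference, 25.4% lower. It was at 8.41, 12.3, 10.5 and 11.2 CPM across EYFP 1 to 4, against 7.89, 7.83 and 8.09 CPM across ATG7 1 to 3, with the 3 ATG7 libraries tightly together just under EYFP 1 (log2 fold change -0.42, SE 0.136, edgeR adjusted p = 0.229).

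The promoters of these genes are shown because SREBP acts with the factor NF-Y, which binds CCAAT boxes, and with Sp1, which binds GC boxes. RefSeq windows on GRCm38.p6, from 250 bases before to 50 bases after a gene start, were found for 21 of the 26 members and searched on both strands. Capitals mark the CCAAT box (CCAAT, or ATTGG on the opposite strand) and, in Hmgcs1 alone, a match to the sterol regulatory element searched as TCACNCCAC. Hmgcs1 lies at chr13:119690101-119690400 (plus strand), Msmo1 at chr8:64733529-64733828 (minus strand), Nsdhl at chrX:72918271-72918570 (plus strand) and Abca1, shown for contrast because it holds neither motif, at chr4:53159846-53160145 (minus strand).
Hmgcs1: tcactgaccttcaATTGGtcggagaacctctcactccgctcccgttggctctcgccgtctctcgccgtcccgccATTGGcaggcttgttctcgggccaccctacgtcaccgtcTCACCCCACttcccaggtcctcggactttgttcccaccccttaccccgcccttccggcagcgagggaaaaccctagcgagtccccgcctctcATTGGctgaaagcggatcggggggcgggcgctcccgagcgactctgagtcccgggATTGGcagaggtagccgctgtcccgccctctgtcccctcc
Msmo1: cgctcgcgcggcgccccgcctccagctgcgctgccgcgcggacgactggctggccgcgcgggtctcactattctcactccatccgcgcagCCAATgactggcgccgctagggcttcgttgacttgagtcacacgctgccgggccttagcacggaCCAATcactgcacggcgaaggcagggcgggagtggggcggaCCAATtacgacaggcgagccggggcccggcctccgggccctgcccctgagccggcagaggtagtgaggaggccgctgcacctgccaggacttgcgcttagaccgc
Nsdhl: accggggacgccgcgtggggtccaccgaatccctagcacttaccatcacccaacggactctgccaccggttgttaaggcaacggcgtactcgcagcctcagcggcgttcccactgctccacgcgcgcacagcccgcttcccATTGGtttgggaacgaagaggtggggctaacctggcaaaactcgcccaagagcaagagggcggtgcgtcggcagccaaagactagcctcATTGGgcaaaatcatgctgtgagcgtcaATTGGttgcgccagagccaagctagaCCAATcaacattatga
Abca1: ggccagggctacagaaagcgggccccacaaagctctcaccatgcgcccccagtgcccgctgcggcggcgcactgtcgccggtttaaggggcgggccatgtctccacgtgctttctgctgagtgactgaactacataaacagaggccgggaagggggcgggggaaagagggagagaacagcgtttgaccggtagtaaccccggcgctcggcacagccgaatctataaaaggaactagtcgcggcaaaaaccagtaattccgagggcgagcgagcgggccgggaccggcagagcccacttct
The CCAAT box occurred in a window of 18 of the 21 members, against 41.1% of all genes with a window and 42.5% of the protein-coding genes tested, and the members without it were Abca1, Acat2 and Scap. Hmgcs1 and Nsdhl held 4 matches each and Msmo1 3. The GC box (GGGCGG) occurred in 20 of 21 members, all but Pmvk, against 38.2% of all genes and 65.3% of those tested. The sterol regulatory element as written occurred in 1 of 21 members, with its first base 137 bases before the start of Hmgcs1, against 1.44% of all genes. Variants of this spelling were not searched, so the other members may hold them. The LXR response element, searched as AGGTCA repeated in 1 orientation with 4 bases between, had no match in the 21 members. It matched 0.0152% of all windows and none of the 11728 protein-coding genes tested. A spelling this rare cannot show whether a looser form of the element is present in the members. These matches describe letters in a window and not binding.

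Sqle, the squalene epoxidase and a rate-limiting step of the pathway (ENSMUSG00000022351, chromosome 15, 59315077 to 59331192), was at 36.8, 50.1, 41.4 and 48.5 CPM across EYFP 1 to 4, against 34.2, 34.7 and 34.8 CPM across ATG7 1 to 3. The 3 ATG7 libraries lay close together below all EYFP libraries, which were themselves spread widely (log2 fold change -0.36, SE 0.104, edgeR adjusted p = 0.181). Without EYFP 1 its adjusted p was 0.0360 (edgeR), in a range of 0.0360 to 0.719 over 16 alternatives. Lss, which closes squalene epoxide into lanosterol (ENSMUSG00000033105, chromosome 10, 76531588 to 76557138), was at 25.4, 31.4, 27.9 and 31.8 CPM across EYFP 1 to 4, against 24.1, 23.9 and 20.9 CPM across ATG7 1 to 3. All 3 ATG7 libraries were below all 4 EYFP libraries, with EYFP 1 nearest (log2 fold change -0.34, SE 0.0996, edgeR adjusted p = 0.179). Cyp51, the lanosterol demethylase (ENSMUSG00000001467, chromosome 5, 4081145 to 4104746), was at 37.4, 43.8, 39.8 and 38.2 CPM across EYFP 1 to 4, against 30.3, 34.0 and 34.9 CPM across ATG7 1 to 3, again without overlap (log2 fold change -0.27, SE 0.0833, edgeR adjusted p = 0.214). Sc5d, the desaturase near the end of the pathway, was at 42.8, 47.6, 37.7 and 41.3 CPM across EYFP 1 to 4, against 35.6, 33.7 and 36.6 CPM across ATG7 1 to 3, without overlap (log2 fold change -0.26, SE 0.0859, edgeR adjusted p = 0.236).

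The other 4 enzymes of the squalene branch overlapped between the groups. Fdft1, squalene synthase, was at 34.3, 50.2, 39.5 and 39.0 CPM across EYFP 1 to 4, against 33.1, 32.8 and 34.4 CPM across ATG7 1 to 3, and only ATG7 3 overlapped, narrowly, with EYFP 1 (log2 fold change -0.29, SE 0.113, edgeR adjusted p = 0.339). Its value is uncertain, because 18.3% of its exon bases lie opposite those of Ctsb, a gene with 755287 counts over the libraries against 11660 for Fdft1, and the strand setting is not given in the sources used here. Ctsb was at 2167 ± 80.2 CPM (SD, n = 4) for EYFP against 2747 ± 155 CPM (SD, n = 3) for ATG7, in the opposite direction to Fdft1. Tm7sf2, a sterol reductase, differed by -0.09 on the log2 scale and Dhcr7, the last reductase of the pathway, by -0.03 (adjusted p = 0.794 and 0.932, edgeR). The Tm7sf2 value is uncertain too, since 12.1% of its exon bases are shared on the same strand with Vps51, which had 13457 counts against 3287 for Tm7sf2, and the treatment of shared reads is not given in the sources used here. Ebp, the sterol isomerase, was the 1 member of the branch above 0, at 0.07 (SE 0.0909, edgeR adjusted p = 0.819). So the branch was not uniform: the fitted differences of its 11 genes ran from -0.42 to 0.07.

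Among the 7 enzymes from acetyl-CoA to farnesyl diphosphate, the log2 fold change was below 0 in 6, the groups did not overlap in 1, none passed the adjusted test, and the median was -0.20. Whether this stretch differed from the squalene branch was not tested. Mvk, mevalonate kinase (ENSMUSG00000041939, chromosome 5, 114444269 to 114460591), was the one without overlap, at 13.4, 16.4, 14.4 and 17.6 CPM across EYFP 1 to 4, against 11.5, 12.7 and 13.2 CPM across ATG7 1 to 3 (log2 fold change -0.31, SE 0.115, edgeR adjusted p = 0.302). Hmgcs1, the synthase that makes the precursor of mevalonate (ENSMUSG00000093930, chromosome 13, 119690379 to 119708260), was at 97.0, 124, 93.9 and 100.4 CPM across EYFP 1 to 4, against 94.7, 83.0 and 93.9 CPM across ATG7 1 to 3. Only EYFP 2 stood clearly above the rest, and EYFP 3 lay below ATG7 1 (log2 fold change -0.20, SE 0.100, edgeR adjusted p = 0.484). Idi1, the isomerase of the isoprenoid building blocks, was at 9.67, 15.4, 12.8 and 13.9 CPM across EYFP 1 to 4, against 11.4, 10.3 and 9.87 CPM across ATG7 1 to 3, where EYFP 1 was the lowest of all 7 libraries (log2 fold change -0.30, SE 0.148, edgeR adjusted p = 0.464). Acat2, the thiolase that condenses acetyl-CoA, differed by -0.20 (SE 0.156, edgeR adjusted p = 0.679). Pmvk and Mvd, the steps after Mvk, differed by -0.04 and 0.02 (SE 0.0863 and 0.118). Fdps, farnesyl diphosphate synthase, had only 212 counts over the 7 libraries, and 26.7% of its exon bases are shared with an overlapping gene model, Gm43738, listed at 0 counts. Its level of 0.747 ± 0.0900 CPM (SD, n = 4) for EYFP against 0.585 ± 0.269 CPM (SD, n = 3) for ATG7 is therefore uncertain, and ATG7 1 alone, at 0.275 CPM, stood apart.

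**Figure D2:**
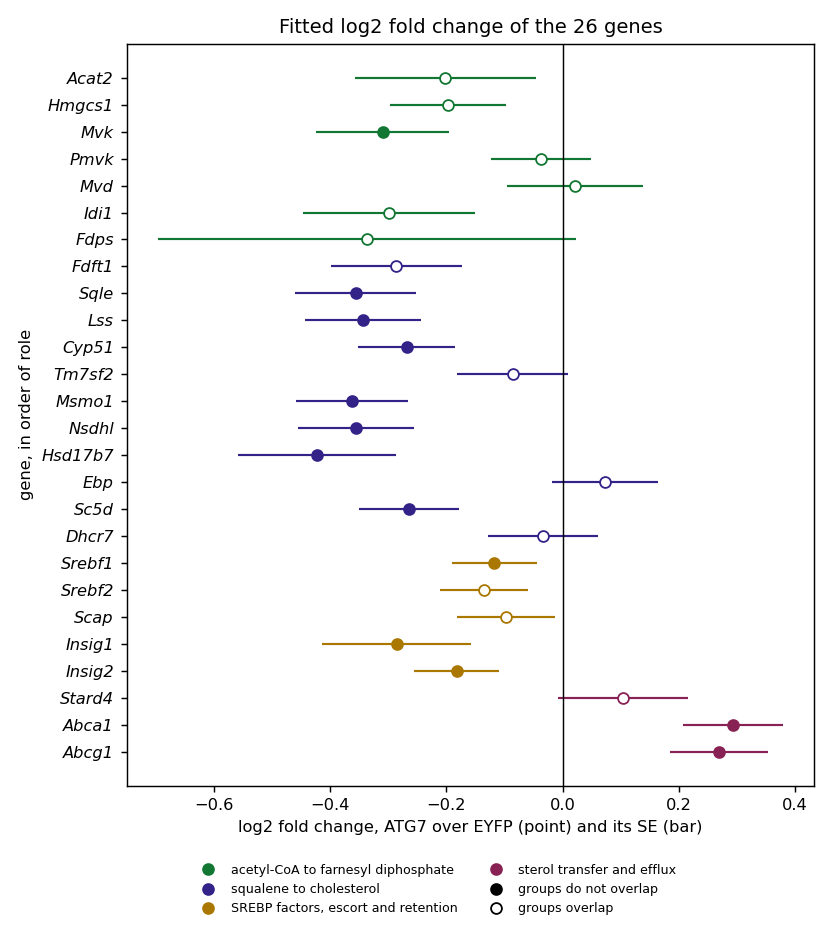
Points are fitted log2 fold changes (ATG7 over EYFP) and bars 1 SE, with the 26 genes in order of role. Filled points mark the 13 genes whose groups did not overlap. The lowest is Hsd17b7 at -0.42 and the highest Abca1 at 0.29.

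The SREBP genes and their 3 escort and retention partners were all fitted below 0, 3 of the 5 without overlap and none past the adjusted test, with a median of -0.14. Insig1, itself a target of SREBP and a retention protein (ENSMUSG00000045294, chromosome 5, 28071363 to 28078662), was at 37.1, 56.3, 43.2 and 38.5 CPM across EYFP 1 to 4, against 35.5, 36.1 and 36.1 CPM across ATG7 1 to 3. The groups did not overlap, but EYFP 1 and EYFP 4 lay close above the ATG7 libraries and EYFP 2 stood far above them (log2 fold change -0.29, SE 0.128, edgeR adjusted p = 0.412). Insig2, the second retention protein, was at 65.0, 75.9, 67.3 and 70.6 CPM across EYFP 1 to 4, against 64.6, 58.5 and 61.3 CPM across ATG7 1 to 3, with EYFP 1 barely above ATG7 1 (log2 fold change -0.18, SE 0.0736, edgeR adjusted p = 0.350). Srebf1 was at 131, 139, 130.3 and 149 CPM across EYFP 1 to 4, against 124, 129 and 128 CPM across ATG7 1 to 3, again separated narrowly (log2 fold change -0.12, SE 0.0727, edgeR adjusted p = 0.589). Srebf2, the factor most tied to cholesterol synthesis, was at 121, 128, 122 and 135 CPM across EYFP 1 to 4, against 107, 115 and 123 CPM across ATG7 1 to 3, and ATG7 3 lay above 2 EYFP libraries (log2 fold change -0.14, SE 0.0756, edgeR adjusted p = 0.533). Scap overlapped widely, with a log2 fold change of -0.10 (SE 0.0838, edgeR adjusted p = 0.717).

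Both exporters had fold changes above 0. Abca1, which passes cholesterol to lipid-poor apolipoproteins (ENSMUSG00000015243, chromosome 4, 53030787 to 53159895), was at 541, 479, 513 and 493 CPM across EYFP 1 to 4, against 594, 681 and 587 CPM across ATG7 1 to 3. Every ATG7 library exceeded every EYFP library, with a fitted ratio of 1.23 that did not pass the adjusted test (log2 fold change 0.29, SE 0.0862, edgeR adjusted p = 0.182). Abcg1, which passes cholesterol to high-density particles (ENSMUSG00000024030, chromosome 17, 31057675 to 31117988), was at 129, 112, 135 and 135 CPM across EYFP 1 to 4, against 143, 162 and 156 CPM across ATG7 1 to 3, also without overlap and by a ratio of 1.21 (log2 fold change 0.27, SE 0.0846, edgeR adjusted p = 0.219). In both genes ATG7 2 was highest and EYFP 2 lowest. Stard4, a soluble sterol carrier that is also a target of SREBP, was at 16.7, 17.5, 16.4 and 16.5 CPM across EYFP 1 to 4, against 18.4, 14.9 and 20.9 CPM across ATG7 1 to 3, with ATG7 2 lowest and ATG7 3 highest of all 7 libraries (log2 fold change 0.10, SE 0.112, edgeR adjusted p = 0.784).

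The 18 synthesis enzymes summed to 489.7, 607, 522 and 537 CPM across EYFP 1 to 4, against 450.2, 451 and 481 CPM across ATG7 1 to 3. On this sum, which abundant genes weight most, every ATG7 library was below every EYFP library, with EYFP 1 nearest and EYFP 2 farthest. As mean log2 CPM, which weights the 18 genes equally, the groups overlapped, at 4.38 ± 0.126 (SD, n = 4) for EYFP against 4.15 ± 0.0904 (SD, n = 3) for ATG7, because ATG7 3 lay barely above EYFP 1. For the 11 enzymes from squalene synthase onward the mean log2 CPM did not overlap, at 4.89 ± 0.111 (SD, n = 4) for EYFP against 4.65 ± 0.0477 (SD, n = 3) for ATG7. Abca1 and Abcg1 together summed to 669, 591, 648 and 628 CPM across EYFP 1 to 4, against 737, 842 and 743 CPM across ATG7 1 to 3. Most of that sum is Abca1, with a mean of 507 CPM in EYFP beside 128 CPM for Abcg1, so the sum and its ratio to the enzymes rest mainly on this gene. The ratio of the summed CPM of the exporters to that of the enzymes, which no library scaling can alter, was 1.19 ± 0.165 (SD, n = 4) for EYFP against 1.68 ± 0.166 (SD, n = 3) for ATG7. By library it was 1.37, 0.973, 1.24 and 1.17 across EYFP 1 to 4, against 1.64, 1.87 and 1.55 across ATG7 1 to 3. Both sums were already apart, in opposite directions, so their ratio had to be apart too and adds no separate result. Leaving Fdft1 and Fdps out of the enzymes gave 1.29 ± 0.172 (SD, n = 4) for EYFP against 1.82 ± 0.180 (SD, n = 3) for ATG7. As the members were chosen with results of these data known, these sums are described without a test. In these bulk libraries fewer cells of a type and less RNA per cell cannot be told apart.

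**Figure D3:**
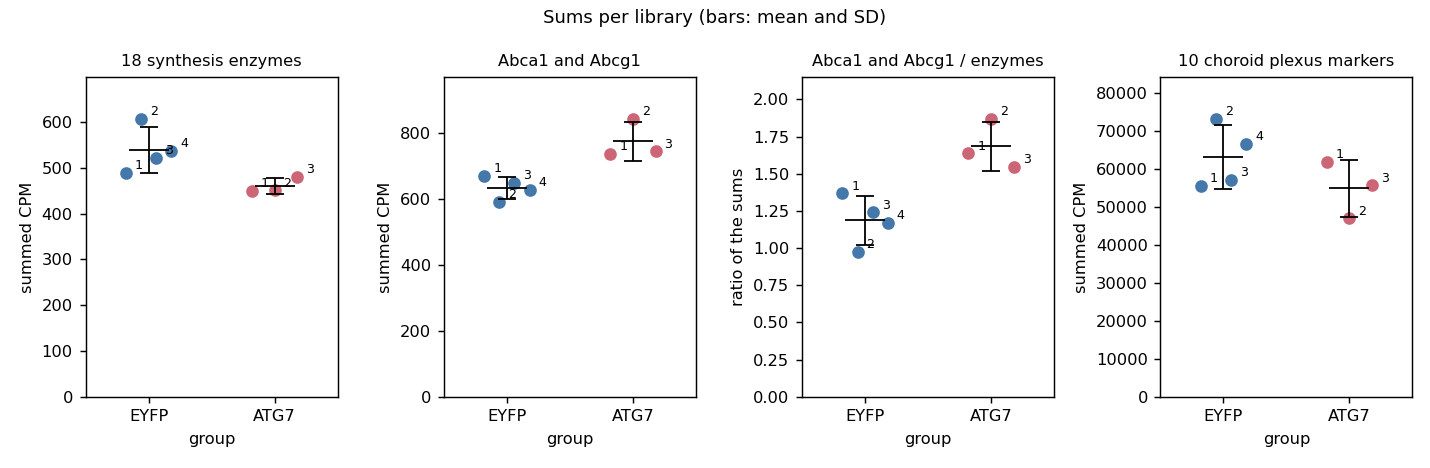
Each point is 1 library, numbered by replicate, and the bars are the mean and SD of its group (4 EYFP, 3 ATG7). From left to right the axes give the summed CPM of the 18 enzymes, the summed CPM of Abca1 and Abcg1, their ratio, and the summed CPM of 10 choroid plexus markers. The first 3 separate the groups and the choroid plexus sum does not, with EYFP 2 highest and ATG7 2 lowest.

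Within the EYFP group the enzymes tended to be high or low together by library. EYFP 2 had the highest EYFP value in 14 of the 18 enzymes and EYFP 1 the lowest in 12. EYFP 2 also had the most choroid plexus signal. The 10 choroid plexus markers, all detected in every library, summed to 55419, 73084, 57120.03 and 66538 CPM across EYFP 1 to 4, against 61773, 46956 and 55655 CPM across ATG7 1 to 3. All 10 had a log2 fold change below 0, with a median of -0.26, close in size to the -0.28 of the enzymes, none passed the adjusted test, and their groups overlapped in 9. The markers' part in the lower enzyme values was not tested. Without EYFP 2, the median log2 fold change of the 26 members was -0.14, and 12 members were below every EYFP library, against 7.02% of all genes in that fit.

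The cells best known for sterol synthesis were also measured. The 10 astrocyte markers, all detected in every library, summed to 458 to 851 CPM in EYFP and 509 to 615 CPM in ATG7, with EYFP 1 highest. The 10 oligodendrocyte markers, likewise all detected, summed to 173 to 339.6 CPM in EYFP and 203 to 249.7 CPM in ATG7, with EYFP 2 highest and EYFP 3 lowest. The 6 oligodendrocyte precursor markers summed to 40.0 to 57.7 CPM in EYFP and 35.4 to 50.3 CPM in ATG7 and the 10 neuron markers, 9 of them detected in every library, to 31.1 to 55.6 CPM in EYFP and 34.2 to 37.2 CPM in ATG7. The medians of their log2 fold changes were -0.19 for astrocytes, -0.27 for oligodendrocytes, -0.12 for precursors and -0.36 for neurons, so these lists also lay below 0, and no marker passed. EYFP 1, with the most astrocyte and neuron signal, had the lowest enzyme sum of its group. EYFP 2, with the most precursor signal, had the highest. The oligodendrocyte sums of these libraries were close, at 331 CPM in EYFP 1 and 339.6 CPM in EYFP 2. The part of these cells in the enzyme values was not tested. Endothelial and mural markers summed to 496 to 824 CPM in EYFP and 634 to 1087 CPM in ATG7, and blood and border myeloid markers to 460.4 to 569 CPM in EYFP and 478 to 638 CPM in ATG7. Their median log2 fold changes lay above 0, at 0.15 for endothelial and mural and 0.03 for blood and border myeloid markers.

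Levels between genes were compared as CPM per kilobase of annotated exon, in the EYFP group. Abca1 was highest at 48.9, then Srebf1 at 24.4, Hmgcs1 at 22.6 and Insig2 at 20.1. Srebf2 at 17.6 and Abcg1 at 17.5 were next and close to each other. Among the squalene enzymes Ebp was highest at 15.3 and Hsd17b7 lowest at 2.08, and Fdps, whose count is uncertain, was lowest of all members at 0.178. In the ATG7 group Abca1 was at 59.9 and Hmgcs1 at 19.7 on the same scale.

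Related genes were taken from 4 lists of 40 genes in all, of which 1 passed the adjusted test. It was Ch25h, the enzyme that hydroxylates the cholesterol side chain to make an oxysterol and is known as an interferon-inducible gene of macrophages (ENSMUSG00000050370, chromosome 19, 34473778 to 34475164). Ch25h was at 2.16, 1.72, 1.49 and 2.26 CPM across EYFP 1 to 4, against 5.40, 7.08 and 4.67 CPM across ATG7 1 to 3, with every ATG7 library far above every EYFP library. It rose 3.01-fold (log2 fold change 1.59, SE 0.210, edgeR adjusted p = 0.00982). Without ATG7 2, its highest library, the log2 fold change was 1.40 with an adjusted p of 0.0537, and without EYFP 3 1.48 with 0.0121 (edgeR). With the replicate number as a block its adjusted p was 0.157, and over 16 alternatives it ranged from 8.91e-10 to 0.157. The 10 lymphocyte markers were led in these libraries by transcripts of T and natural killer cells, and 8 were tested. Of these 8, 5 were higher in every ATG7 library, against 6.33% of all genes tested, and none passed the adjusted test. Of the 10, 9 were detected in every library. They summed to 6.50, 6.65, 2.70 and 4.22 CPM across EYFP 1 to 4, against 7.44, 8.30 and 18.5 CPM across ATG7 1 to 3, highest in ATG7 3 where Ch25h was lowest of the group, and their part in the Ch25h value was not tested.

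**Figure D4:**
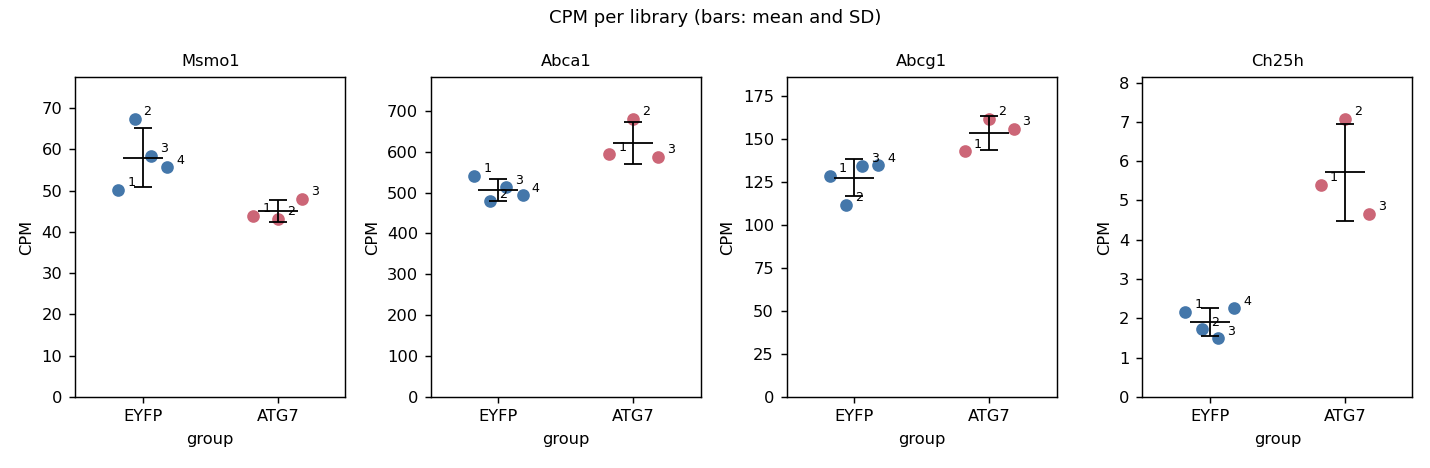
CPM by library for Msmo1, Abca1, Abcg1 and Ch25h, each on its own axis from 0, with points numbered by replicate and bars for the mean and SD of the 4 EYFP and 3 ATG7 libraries. The groups are apart in all 4 genes, and the fitted fold is 3.01 for Ch25h and 1.23 for Abca1.

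The uptake, storage and LXR list, which holds Ch25h, had no common direction, with 7 of 14 genes on each side of 0 and a median of 0.0022. In 3 of them, Ch25h, Soat1 and Mylip, every ATG7 library lay above every EYFP library, against 6.33% of all genes. The reverse held in 0, against 4.91%. For Mylip the gap was narrow, with ATG7 1 at 328 CPM and EYFP 3 at 327 CPM. Soat1 and Mylip, named once their values were known, did not pass the adjusted test. The lipoprotein receptors Vldlr, Lrp1 and Scarb1 differed by -0.25, -0.05 and -0.03 on the log2 scale, and the LXR genes Nr1h2 and Nr1h3 by -0.01 and 0.26. None of these 5, which were chosen for naming once their values were known, passed. Fatty acid synthesis genes, the usual targets of the Srebf1 product, had a log2 fold change below 0 in 8 of 10, a median of -0.22 and no call. Fads2, a fatty acid desaturase, had their smallest p, at 138, 154, 141 and 149.95 CPM across EYFP 1 to 4, against 121, 114 and 116 CPM across ATG7 1 to 3 without overlap (log2 fold change -0.31, SE 0.0704, edgeR adjusted p = 0.0825). SREBP processing and feedback genes had a median of -0.04 over 8 genes, with Erlin2 first by p at -0.18 (edgeR adjusted p = 0.350). The isoprenoid branch, which leaves the pathway at farnesyl diphosphate, had a median of -0.04 over 8 genes, with Fntb first at -0.25 (edgeR adjusted p = 0.380).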

How the data were processed

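The authors deposited raw counts per Ensembl gene for 7 libraries, 55401 rows, each column matched to a library by its label. Per the submitters' processing notes, fastp 0.20.1, HISAT2 2.0.5 and featureCounts were used with mm10/GRCm38. The annotation release, strand setting and treatment of shared reads are not given in the sources used here. The 37 mitochondrial genes were listed at 0. GENCODE M21 (GRCm38) gave symbols for 55141 rows and none for 260. Coordinates describe that annotation. Promoter sequences are RefSeq's.

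ATG7 was compared with EYFP by the quasi-likelihood test of edgeR 4.0.16 (R 4.3.3) with TMM factors, filterByExpr and a robust dispersion, two-sided and without covariates, on 19199 genes. SE is the absolute log2 fold change over the square root of F. Library means of log2 CPM used a prior count of 2. The code was tested on simulated data with 200 changed genes. It recovered 65% of them at 1.5-fold, 81% at 2-fold and 96% at 3-fold. Of the genes called, 7.80%, 11.0% and 7.25% were false. Smaller changes were not simulated. Same-group pairs of libraries differed beyond counting noise (chi-square per degree of freedom 19.2 to 41.3), and each was counted once. Total counts set a floor of 3 counts at 0.0543 to 0.0835 CPM, for counting error only.

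The members, lists, motifs and alternatives were chosen with earlier results of these data known. All 26 members are named; of each related list, the passing genes with the smallest p or, with none, the single smallest. Alternatives were 3 scalings, 2 filters, DESeq2 1.42.0, limma-voom (limma 3.58.1), a replicate block, leaving out Ttr and Enpp2, and leaving out each library.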

Additional observations from a re-analysis of the deposited data

How the results depend on the processing

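Over 16 alternatives the number of members below 0 stayed between 20 and 24. The number lower in every ATG7 library was 11 to 13 (3.34% to 6.15% of all genes) with all libraries and 11 to 15 (6.18% to 9.58% of all genes) with 1 left out, where non-overlap takes fewer libraries. The difference in mean log2 CPM of the members was -0.20 to -0.12 when 1 library was left out. The genes that differed numbered 145, but 297 with no filter (234 higher, 63 lower), 572 by DESeq2 (404 higher, 168 lower) and 0 with the replicate block. Leaving out 1 library gave 28 to 277: 277 without EYFP 1, 94 without EYFP 2, 30 without EYFP 4, 28 without ATG7 2 and 30 without ATG7 3. The members that differed numbered 0, but 1 with no filter (Msmo1, adjusted p = 0.0436; 0.900% of all genes), 2 by DESeq2 (Msmo1 and Abca1), and 0 to 2 with 1 library left out (Msmo1 and Sqle without EYFP 1, where 1.46% of all genes passed). With the replicate block, none passed and 9 had an unadjusted p under 0.05, against 6.54% of all genes. Same-numbered libraries correlated by -0.0609, -0.182 and 0.0664 in their deviations from the group means. Libraries with different numbers correlated by -0.145 to 0.215. So few libraries cannot show whether the numbers pair the samples. Directions near 0 turned in 4 genes when 1 library was left out: Mvd ran from -0.0561 (without ATG7 2) to 0.11 (without ATG7 1), with -0.0326 without EYFP 1 and -0.000416 without ATG7 3, Dhcr7 ran from -0.13 (without ATG7 3) to 0.0639 (without ATG7 1), Ebp ran from -0.0105 (without ATG7 3) to 0.12 (without EYFP 3) and Stard4 ran from -0.0193 (without ATG7 3) to 0.23 (without ATG7 2). The causes of these shifts were not tested.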

Other observations

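Genes outside the naming rule are given next, chosen once their values were known, and none passed the adjusted test (edgeR). Scd1, the stearoyl-CoA desaturase, was at 111, 129, 92.2 and 122 CPM across EYFP 1 to 4, against 80.8, 88.9 and 88.0 CPM across ATG7 1 to 3, lower in every ATG7 library (log2 fold change -0.40, SE 0.107, edgeR adjusted p = 0.144). Fads1, which works in sequence with Fads2, was at 289, 321, 300.3 and 304 CPM across EYFP 1 to 4, against 251, 263 and 266 CPM across ATG7 1 to 3, also without overlap (log2 fold change -0.22, SE 0.0733, edgeR adjusted p = 0.244). Soat1, which esterifies cholesterol for storage, was at 119, 106, 114 and 115 CPM across EYFP 1 to 4, against 129, 132 and 129 CPM across ATG7 1 to 3, higher in every ATG7 library (log2 fold change 0.20, SE 0.0676, edgeR adjusted p = 0.272). Cyp46a1, the neuronal enzyme that converts cholesterol to an oxysterol that leaves the brain, was at 9.12, 9.55, 7.52 and 11.2 CPM across EYFP 1 to 4, against 5.92, 7.72 and 6.34 CPM across ATG7 1 to 3, with ATG7 2 overlapping EYFP 3 (log2 fold change -0.49, SE 0.157, edgeR adjusted p = 0.231).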
